A study of Mus musculus with 22 samples.

Results

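The 10 genes described here belong to the Serpina family, which encodes secreted serpins, proteins that hepatocytes release into the blood. Their rows were taken by symbol from the authors' deposited table of 24197 RefSeq genes, which holds 25 Serpina genes in all, and each of the 10 was found. The listed genes are Serpina1a, Serpina1b, Serpina1c, Serpina1d, Serpina1e, Serpina3k, Serpina3m, Serpina3n, Serpina6 and Serpina7. They were selected on that table's mean FPKM and ratios in the 5 comparisons, so their levels, ratios and adjusted p-values below are a description.

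Most serpins trap a protease by letting it cut an exposed loop, after which the serpin folds around the enzyme and both are cleared. Serpina1 encodes alpha-1-antitrypsin, which in humans protects tissue from neutrophil elastase, and the mouse carries several near-identical copies of it. The mouse Serpina3 genes correspond to the single human gene of antichymotrypsin. Serpina3n is a classical acute-phase gene, induced in liver by inflammatory cytokines. A pair of family members do not inhibit proteases and carry hormones instead. Serpina6 encodes corticosteroid-binding globulin and Serpina7 thyroxine-binding globulin.

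Poly(A) RNA from nuclei of CD-1 (ICR) mouse liver was sequenced in 22 libraries that form 10 groups, from animals of 7 weeks for which the labels name no genetic alteration. Males and females received 3 mg/kg of TCPOBOP, which activates the xenobiotic receptor CAR (gene Nr1i3), or vehicle, and livers were taken after 3 h or 27 h. Each of these groups had 2 pools, made from 8 livers at 3 h and 6 livers at 27 h. Males alone received 50 mg/kg of PCN, which activates the related receptor PXR (gene Nr1i2), or vehicle, with livers taken after 3 h and 3 pools from 12 livers per group. Vehicle was 1% DMSO in corn oil in both sets, and all livers were taken in the same late-morning window. The TCPOBOP set is labelled stranded and the PCN set unstranded, which matters for overlapping genes, but no listed gene overlaps another gene of the table.

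FPKM, the unit of the table, counts sequenced fragments per kilobase of gene, scaled to the mapped fragments of a library, and each FPKM printed here is the authors' mean over the pools of a group. No values per library were used here, so no SD and no test of a sex, time or compound difference could be given. By the steps between low FPKM values, a TCPOBOP-set pool held about 25400000 to 46700000 mapped fragments, and a PCN-set pool 19000000 to 31900000. A single fragment per kilobase then equals 0.0214 to 0.0394 FPKM and 0.0313 to 0.0526 FPKM. A gene is said to have risen or fallen where the authors' adjusted p was below 0.05. Groups named by sex and time alone, such as 3 h males, are those of the TCPOBOP set.

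Of the 10 genes, 9 lie on chromosome 12 in a cluster of 24 Serpina genes that spans 798 kb (mm9, 104854885 to 105652539), and Serpina7 (NM_177920) lies on chromosome X (135613789 to 135619775). From the lower coordinate the cluster begins with Serpina10, Serpina6 (NM_007618, 104884842 to 104895281) and Serpina1f. Serpina1b (NM_009244), Serpina1d (NM_009246), Serpina1a (NM_009243), Serpina1c (NM_009245) and Serpina1e (NM_009247) follow within 229 kb, from 104966366 to 105195107. Serpina3k (NM_011458), Serpina3m (NM_009253) and Serpina3n (NM_009252) close the cluster within 76 kb, from 105576696 to 105652539. Near-identical copies can share reads, and how the authors' counting divided such reads is not given in the sources used here. Levels and ratios of single Serpina1 and Serpina3 copies are therefore uncertain.

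RefSeq promoter windows (GRCm38.p6) matched 7 of the 10 genes, and Serpina3k, Serpina3m and Serpina6 had none. The 5 Serpina1 copies are shown to make visible how alike they are upstream of their annotated starts. How alike the counted gene bodies are was not measured. Over 191 aligned bases before the annotated start of each copy, pairs of copies were 92.1% to 97.4% identical. The 120 bases below, on the minus strand, align with no gap, and capitals mark the 10 positions at which the copies are not all the same. They lie at chr12:103863625-103863744 (Serpina1a), chr12:103738200-103738319 (Serpina1b), chr12:103904962-103905081 (Serpina1c), chr12:103773634-103773753 (Serpina1d) and chr12:103956960-103957079 (Serpina1e).
Serpina1a: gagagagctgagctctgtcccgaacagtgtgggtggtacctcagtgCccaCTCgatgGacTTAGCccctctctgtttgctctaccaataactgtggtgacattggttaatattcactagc
Serpina1b: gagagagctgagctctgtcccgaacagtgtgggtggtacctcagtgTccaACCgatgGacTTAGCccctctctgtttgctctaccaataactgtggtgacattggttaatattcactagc
Serpina1c: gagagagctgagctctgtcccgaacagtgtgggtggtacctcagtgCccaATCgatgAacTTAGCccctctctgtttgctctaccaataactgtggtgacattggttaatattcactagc
Serpina1d: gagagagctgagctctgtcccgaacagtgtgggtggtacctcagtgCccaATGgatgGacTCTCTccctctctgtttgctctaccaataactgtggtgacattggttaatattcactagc
Serpina1e: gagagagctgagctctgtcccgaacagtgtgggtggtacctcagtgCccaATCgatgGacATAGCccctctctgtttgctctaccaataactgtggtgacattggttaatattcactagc
Serpina1d differed from each other copy at 6 or 7 of the 120 bases, and the other 4 copies differed among themselves at 2 or 3. Over the 191 bases its identity to the other copies ran from 92.1% (Serpina1c) to 95.8% (Serpina1e). Pairs without Serpina1d ran from 93.2% (Serpina1b and Serpina1c) to 97.4% (Serpina1a and Serpina1c), so the 2 ranges overlapped. All 5 stretches hold the letters GTTAAT, a core element of the liver factor HNF1, near the right end, and 6.43% of 32851 RefSeq promoters held it on either strand within the 250 bases before the start. This motif was added after the promoters had been seen. AGTTCA, a nuclear receptor element found in 11.8% of promoters, occurred in Serpina1c and Serpina7 among the 7 genes, and AGGTCA, found in 14.02%, in none.

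Serpina7 and Serpina3n are shown because they had the widest ranges of level among the 10 genes. The 120 bases before the start are on the minus strand at chrX:139085237-139085356 for Serpina7 and on the plus strand at chr12:104406588-104406707 for Serpina3n, and capitals mark motif matches. Serpina7 has 2 annotated starts, of which 1 is shown.
Serpina7: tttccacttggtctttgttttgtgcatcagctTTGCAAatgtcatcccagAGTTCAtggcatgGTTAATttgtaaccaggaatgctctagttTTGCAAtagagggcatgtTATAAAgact
Serpina3n: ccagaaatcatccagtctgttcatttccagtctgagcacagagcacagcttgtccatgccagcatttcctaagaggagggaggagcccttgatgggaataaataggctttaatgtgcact
In Serpina7 the capitals are TTGCAA (the C/EBP motif, in 5.34% of promoters) at 2 places, the receptor element AGTTCA, the HNF1 element and the TATA box letters TATAAA (in 12.4%). No searched motif matched in Serpina3n, and TTCNNNGAA (the STAT motif, in 7.02% of promoters) matched in none of the 7 genes. The direct repeats of AGGTCA and of AGTTCA with 4 bases between, the HNF1 palindrome and the glucocorticoid receptor palindrome were each in at most 0.0152% of promoters and in none of the 7. Both strands were searched in the 250 bases before the start, the receptor elements share 5 letters, the HNF1 element is part of its palindrome, and a match or its absence says nothing of a factor's binding.

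**Figure D1:**
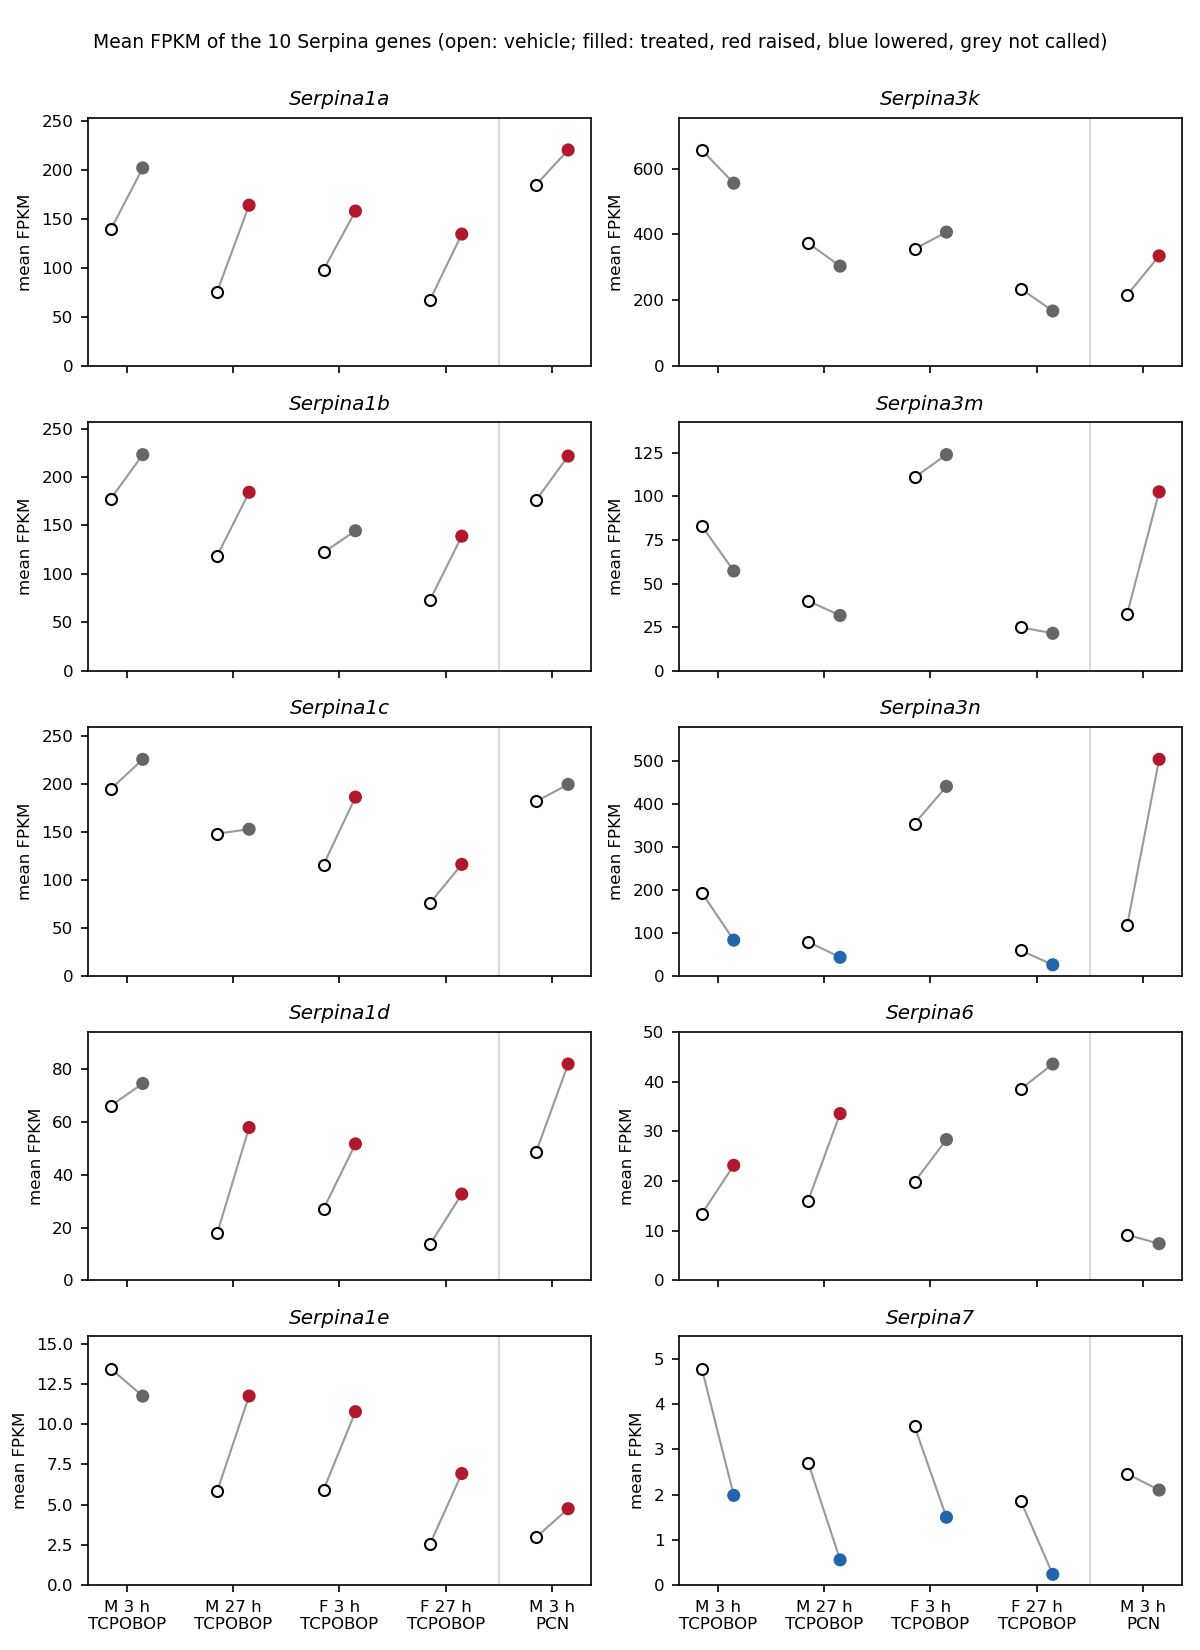
Mean FPKM (linear axis from 0, a separate scale per gene) of the 10 genes in the vehicle group (open points) and treated group (filled points) of the 5 comparisons, with M for males and F for females. Each point is the authors' mean of 2 or 3 pools with no spread. Serpina7 sits lower after TCPOBOP in all 4 comparisons, and Serpina3n reaches 503 FPKM after PCN.

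Summed over the 10 genes, the group means came to 592 to 1679 FPKM, or 0.448% to 2.09% of all FPKM in a group. Serpina3k, a kallikrein-binding serpin in mouse, was the highest of the 10 in 8 of the 10 groups. It ranked 11th of all genes in male 3 h vehicle with 656 FPKM. Serpina7 was the lowest of the 10 in every group, between 0.236 and 4.78 FPKM. The widest spans between groups were those of Serpina7, 20.3-fold, and Serpina3n, 19.97-fold, against 2.98-fold to 6.03-fold in the other 8 genes. No spread between pools is held, so neighbours in these orders could not be tested. A mean over whole-liver nuclei cannot tell fewer cells of a type from less RNA per cell.

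Over the 50 pairs of gene and comparison, the authors' table called 22 raised and 7 lowered. TCPOBOP raised 1 of the 10 genes (Serpina6) and lowered 2 (Serpina3n and Serpina7) in 3 h males, where 1.33% of genes at 1 FPKM or more were raised and 0.505% lowered. In 27 h males 5 rose and 2 fell, against 8.71% raised and 7.61% lowered of all such genes. In 3 h females 4 rose and 1 fell, against 2.67% and 1.84%. In 27 h females 5 rose and 2 fell, against 6.98% and 6.01%. PCN raised 7 and lowered none in 3 h males, against 12.9% and 9.41%. Since the genes were chosen with these calls known, the counts are not read against those shares. The gene lists counted below were also chosen with earlier results known. The same shares are given again in the paragraphs on those lists, and no count is read as a response of a list. The median log2 ratio of the 10 Serpina genes was -0.03, 0.39, 0.48 and 0.46 in the 4 TCPOBOP comparisons in the same order and 0.65 after PCN. The median over all genes at 1 FPKM or more lay between -0.02 and 0.03.

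**Figure D2:**
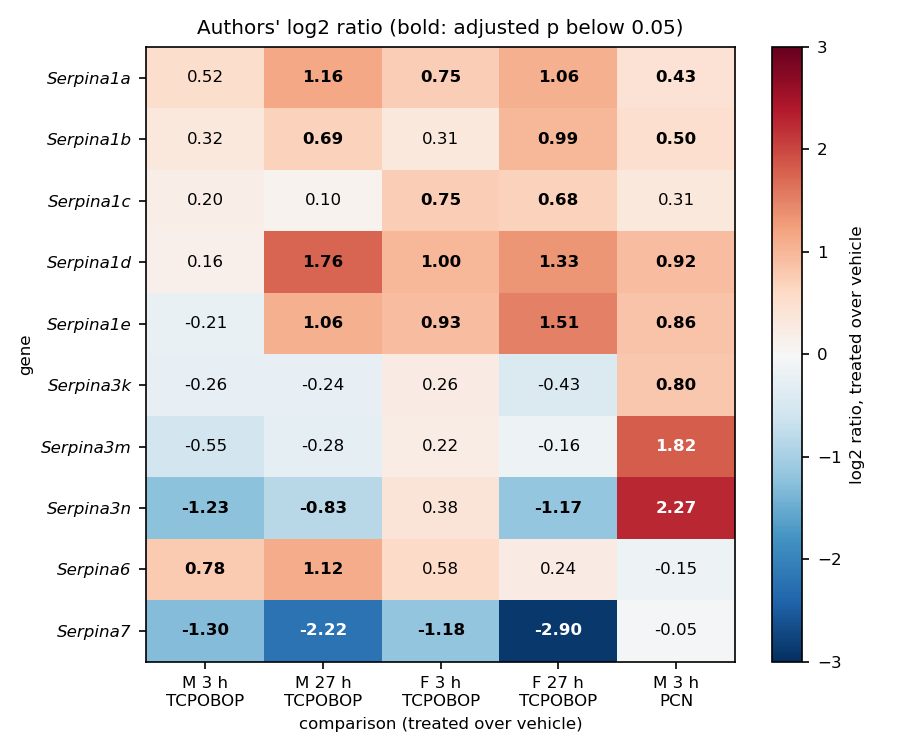
Log2 of the authors' ratio of treated over vehicle for the 10 genes (rows) in the 5 comparisons (columns; M males, F females). Colour and number give the same value, and bold numbers mark an adjusted p below 0.05. The values run from -2.90 (Serpina7, females, 27 h) to 2.27 (Serpina3n, PCN).

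The 5 alpha-1-antitrypsin copies rose wherever they were called. Of the 5, 4 rose in 27 h males, 4 in females at 3 h, 5 in females at 27 h and 4 after PCN in the authors' deposited table, and none was called in males 3 h after TCPOBOP. Their summed level went from 367 to 571 FPKM in 27 h males, from 369 to 552 FPKM in 3 h females and from 232 to 430 FPKM in 27 h females. The sum was 592 FPKM in vehicle and 738 FPKM after TCPOBOP in 3 h males, and 595 FPKM and 729 FPKM in the PCN set. The quotients of these sums lay between 1.22 and 1.85 on the plain FPKM scale, which in the PCN set lies below the authors' ratio (by 1.13-fold in the median gene).

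Serpina1d had the largest ratio of the 5 copies in 27 h males. Its mean rose from 17.8 to 57.9 FPKM there, 3.38-fold by the authors' ratio (adjusted p = 2.76e-22 in the authors' deposited table). In 3 h females it rose from 27.0 to 51.7 FPKM, 2.00-fold (adjusted p = 0.000126 in the authors' table). In 27 h females it rose from 13.6 to 32.7 FPKM, or 2.52-fold (adjusted p = 6.42e-05 in the authors' table). PCN raised it from 48.8 to 82.0 FPKM, 1.90-fold (adjusted p = 4.32e-08 in the authors' table). In 3 h males it stood at 66.2 FPKM in vehicle and 74.6 FPKM after TCPOBOP, with adjusted p = 1 in that table. In males its 27 h treated mean, 57.9 FPKM, was below the 66.2 FPKM of 3 h vehicle, so treated and vehicle means overlapped across times. In females the treated means of 32.7 and 51.7 FPKM lay above the vehicle means of 13.6 and 27.0 FPKM.

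Serpina1e, the copy with the lowest level, rose 2.09-fold in 27 h males, from 5.84 to 11.8 FPKM (adjusted p = 5.19e-08 in the authors' deposited table). It rose 2.84-fold in 27 h females, from 2.54 to 6.93 FPKM (adjusted p = 2.48e-08 in the authors' table). The other calls were rises of 1.91-fold in 3 h females, to 10.8 FPKM, and of 1.81-fold after PCN, from 2.97 to 4.75 FPKM, in the authors' table. In 3 h males Serpina1e was at 13.4 FPKM in vehicle and 11.7 FPKM after TCPOBOP, the only copy with a ratio below 1 in that comparison, and it was not called.

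Serpina1a and Serpina1b had close levels and were called in the same comparisons except in 3 h females. Serpina1a rose 2.24-fold in 27 h males, from 76.2 to 164 FPKM (adjusted p = 2.00e-08 in the authors' deposited table), and 2.09-fold in 27 h females, from 67.5 to 135 FPKM (adjusted p = 0.000207). Serpina1b rose 1.61-fold in 27 h males, from 119 to 184 FPKM (adjusted p = 0.00054), and 1.99-fold in 27 h females, from 72.8 to 139 FPKM (adjusted p = 0.000276), in the authors' table. In 3 h females Serpina1a rose from 98.5 to 158 FPKM (1.68-fold, adjusted p = 0.0273), while Serpina1b stood at 122 FPKM in vehicle and 145 FPKM after TCPOBOP (adjusted p = 0.688), by the authors' table. PCN raised Serpina1a 1.34-fold to 221 FPKM and Serpina1b 1.42-fold to 222 FPKM in the authors' table. With reads that the copies may share, the difference between them in 3 h females cannot be told apart from a different division of reads.

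Serpina1c was called in females alone. It rose from 116 to 186 FPKM in 3 h females (1.68-fold, adjusted p = 0.00153) and from 75.8 to 116 FPKM in 27 h females (1.60-fold, adjusted p = 0.039) in the authors' deposited table. In 27 h males the authors' table lists it at 148 FPKM in vehicle and 153 FPKM after TCPOBOP (1.07-fold, adjusted p = 1). Its share of the summed Serpina1 level went from 40.4% to 26.8% in that comparison, while that of Serpina1d went from 4.86% to 10.1%. After PCN it stood at 1.24-fold with adjusted p = 0.0751 in the authors' table. Whether the sexes differ in Serpina1c was not tested.

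The Serpina1 means at 27 h were also set against the 3 h vehicle. The Serpina1 sum was lower in 27 h vehicle than in 3 h vehicle in both sexes, and each 27 h treated group sat near the 3 h vehicle level of its sex (571 against 592 FPKM in males, 430 against 369 FPKM in females). The treated sum was lower at 27 h than at 3 h as well (571 against 738 FPKM in males, 430 against 552 FPKM in females). Set against the 3 h vehicle of the same sex and centred on the median gene, the 27 h log2 quotients of the 5 copies lay between -0.38 and 0.36. Among called genes the sign turned for Serpina1d (-0.22) and Serpina1e (-0.22) in males and for Serpina1c (-0.09) in females. Serpina1c in males, which was not called, went from 0.10 to -0.38. All livers came from the same hours of the day, and what separates the vehicle groups of the 2 times was not tested.

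The Serpina3 genes at the far end of the cluster showed another pattern. PCN raised Serpina3k, Serpina3m and Serpina3n, and TCPOBOP raised none of the 3. Serpina3n, known in mouse as an inhibitor of granzyme B, rose from 118 to 503 FPKM after PCN, 4.83-fold (adjusted p = 1.46e-15 in the authors' deposited table). After TCPOBOP it fell from 193 to 82.6 FPKM in 3 h males (2.35-fold, adjusted p = 0.0422), from 78.5 to 42.6 FPKM in 27 h males (1.78-fold, adjusted p = 3.99e-05) and from 58.6 to 25.2 FPKM in 27 h females (2.24-fold, adjusted p = 0.00147), in the authors' table. In 3 h females it stood at 354 FPKM in vehicle and 440.4 FPKM after TCPOBOP, with adjusted p = 0.558 in that table. The call in 3 h males is near the threshold and was lost at an adjusted p below 0.01. Against the 27 h male vehicle its log2 quotient was 0.14, so the direction of that call turned, whereas the 27 h quotients against 3 h vehicle were -2.20 in males and -3.90 in females.

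Serpina3m, whose protein is related to antichymotrypsin, rose from 32.8 to 103 FPKM after PCN, 3.53-fold (adjusted p = 9.14e-26 in the authors' deposited table). Its TCPOBOP means were not called against vehicle. The nearest was 3 h males, at 83.0 FPKM in vehicle and 57.2 FPKM treated, with adjusted p = 0.0579 in the authors' table. Serpina3k rose from 216 to 335 FPKM after PCN, 1.75-fold (adjusted p = 0.000485 in the authors' table). In the TCPOBOP comparisons Serpina3k went without a call at ratios between 0.742 (27 h females, 235 and 168 FPKM) and 1.19 (3 h females, 356 and 407 FPKM) in the authors' table. TCPOBOP and PCN were given in separate sets with separate vehicle pools, doses and library types, so the compounds were not compared directly.

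The list of IL-6 signalling and acute-phase genes, which holds 24 genes at 1 FPKM or more and none of the 10, was counted beside Serpina3n. By the authors' deposited table PCN raised 19 of the 24 and lowered none, with a median log2 ratio of 0.76. Of all genes at 1 FPKM or more PCN raised 12.9% and lowered 9.41%. TCPOBOP lowered 3 and raised none in 3 h males, lowered 16 and raised 1 in 27 h males, and lowered 7 and raised 2 in 27 h females, with medians of -0.29, -0.64 and -0.46. In 3 h females 2 rose and none fell, with a median of 0.04. Of all such genes TCPOBOP raised 1.33% and lowered 0.505% in 3 h males, and raised 8.71% and lowered 7.61% in 27 h males. The shares in females were 2.67% and 1.84% at 3 h and 6.98% and 6.01% at 27 h. The pentraxin gene Apcs rose 2.91-fold after PCN and Lrg1, a secreted glycoprotein gene of the acute phase, 2.04-fold in the authors' table. Socs3, the feedback inhibitor of IL-6 signalling, fell 2.31-fold in 27 h males and 2.81-fold in 27 h females in the authors' table. Lbp, which binds bacterial endotoxin, fell 1.97-fold in 3 h males in the same table. Crp, the gene of C-reactive protein, was the gene raised in 27 h males, and it rose 1.802-fold in 3 h females and 2.46-fold in 27 h females by the authors' table.

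**Figure D3:**
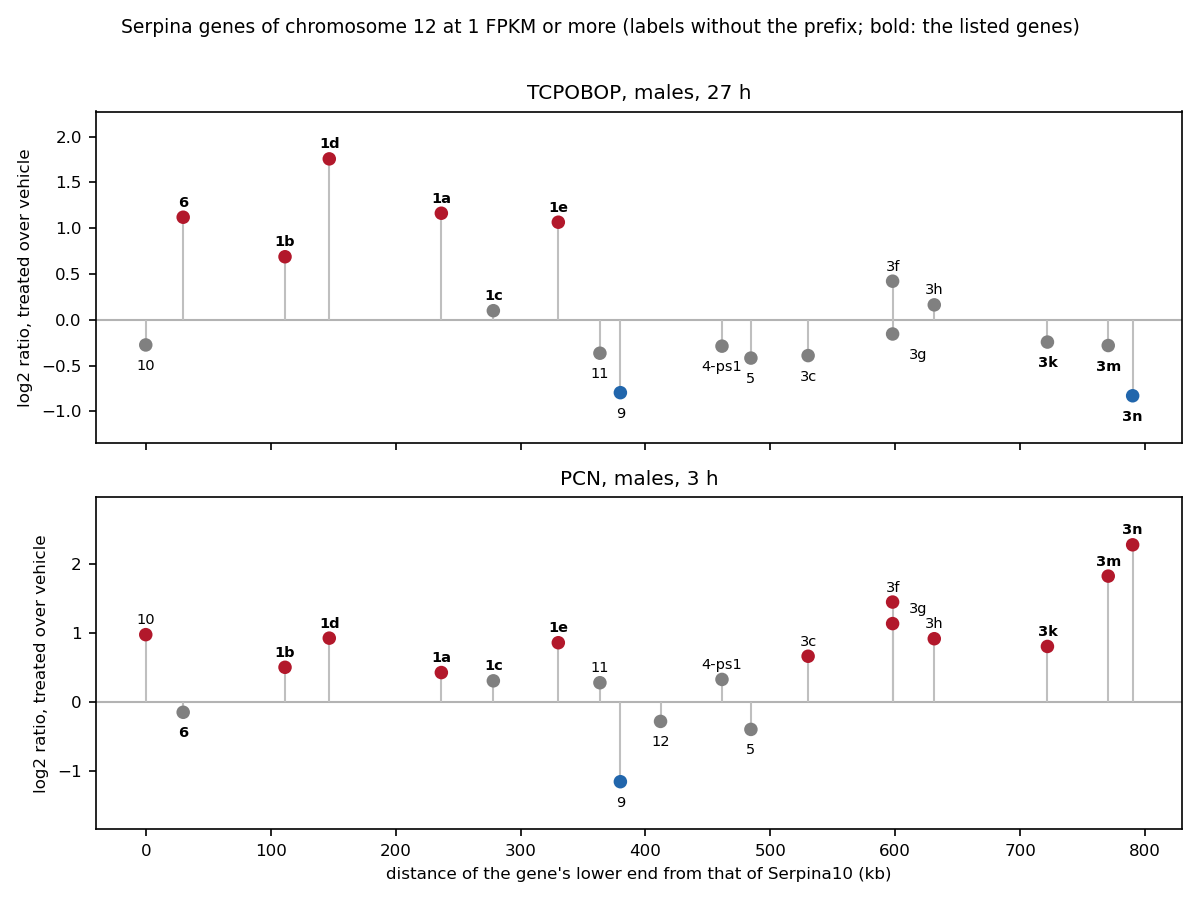
Log2 of the authors' ratio for the Serpina genes of chromosome 12 at 1 FPKM or more in either group, by distance in kb from the lower end of Serpina10, for TCPOBOP in 27 h males (upper plot) and PCN in 3 h males (lower plot). Red points were raised, blue lowered and grey not called. In the upper plot the raised genes lie from Serpina6 (29.96 kb) to Serpina1e (330.3 kb), and in the lower plot Serpina3m and Serpina3n, at 1.82 and 2.27, are the highest.

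The other 15 Serpina genes of the table give the neighbourhood. After TCPOBOP none was called at 3 h in either sex or in 27 h females, and Serpina9, a serpin known from B cells, fell 1.74-fold in 27 h males in the authors' deposited table. PCN raised 5 of the 10 at 1 FPKM or more, namely Serpina3c, Serpina3f, Serpina3g, Serpina3h and Serpina10, and lowered Serpina9 (2.22-fold) in the authors' table. Of all genes at that level PCN raised 12.9% and lowered 9.41%. TCPOBOP raised 1.33% and lowered 0.505% of them in 3 h males, and 8.71% and 7.61% in 27 h males. In females the shares were 2.67% and 1.84% at 3 h and 6.98% and 6.01% at 27 h. Serpina10, the inhibitor of clotting factor Xa that works with protein Z, rose 1.96-fold to 139.6 FPKM. Serpina3f lies within the span of Serpina3g in the table, so reads in the shared stretch cannot be told apart. Serpina4-ps1, a pseudogene inside the cluster, was higher than any of the 10 genes at 607 to 2397 FPKM and was not called in any comparison.

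Serpina6, the corticosteroid carrier, was called after TCPOBOP in males and not in females. It went from 13.4 to 23.2 FPKM in 3 h males, 1.71-fold (adjusted p = 0.000336), and from 16.04 to 33.6 FPKM in 27 h males, 2.17-fold (adjusted p = 2.73e-10), in the authors' deposited table. In females it stood at 19.8 FPKM in vehicle and 28.3 FPKM after TCPOBOP at 3 h (1.49-fold, adjusted p = 0.219), and at 38.5 and 43.5 FPKM at 27 h (1.18-fold, adjusted p = 0.803), in the authors' table. After PCN it was at 7.37 FPKM against 9.16 FPKM in vehicle, with adjusted p = 0.881 in that table. The male treated means lay below the 38.5 FPKM of female 27 h vehicle, and the difference between sexes was not tested. Against the 3 h vehicle of the same sex, the 27 h log2 quotient of Serpina6 was 1.29 in males and 1.03 in females. Against the 27 h vehicle the 3 h quotient was 0.59 in males and -0.20 in females, so the sign of the uncalled female value turned.

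Genes of glucocorticoid handling and response were counted beside the carrier. In the authors' deposited table TCPOBOP lowered 1 of 19 such genes (Per1) and raised none in 3 h males, lowered 8 and raised 2 of 19 in 27 h males, raised 4 and lowered none of 19 in 3 h females, and lowered 6 and raised 3 of 18 in 27 h females. PCN raised 9 of 19 and lowered none, with a median log2 ratio of 0.60. Of all genes at 1 FPKM or more PCN raised 12.9% and lowered 9.41%. TCPOBOP raised 1.33% and lowered 0.505% of them in 3 h males, and 8.71% and 7.61% in 27 h males. In females the shares were 2.67% and 1.84% at 3 h and 6.98% and 6.01% at 27 h. The metallothionein gene Mt2 fell 6.03-fold in 27 h males and 6.94-fold in 27 h females, and Fkbp5, a co-chaperone of the glucocorticoid receptor, rose 3.97-fold after PCN, in the authors' table. Akr1d1, which reduces steroid hormones and bile acid precursors, rose 2.36-fold in 27 h males in that table. Lcn2 stands both on this list and on the acute-phase list. Tat is on this list and among the hepatocyte markers counted below, and Fgb is on the acute-phase list and among those markers. Metallothioneins also respond to metals, and Akr1d1 and Ugt2b1, the 2 genes raised in 27 h males, encode enzymes of steroid metabolism.

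Serpina7, the thyroxine carrier, fell in each TCPOBOP comparison. In 3 h males it went from 4.78 to 1.98 FPKM, 2.46-fold lower (adjusted p = 6.60e-06 in the authors' deposited table). In 27 h males it went from 2.71 to 0.557 FPKM, or 4.66-fold lower (adjusted p = 2.81e-12 in the authors' table). In 3 h females it fell 2.27-fold, from 3.51 to 1.499 FPKM (adjusted p = 0.00513 in the authors' table). The lowest ratio of the 10 genes was in 27 h females, from 1.85 to 0.236 FPKM, 7.46-fold lower (adjusted p = 6.73e-16 in the authors' table). After PCN it stood at 2.10 FPKM against 2.46 FPKM in vehicle, with adjusted p = 1 in that table. Each treated mean of the 27 h groups lay below every vehicle mean, whereas the 3 h male treated mean of 1.98 FPKM lay above the 27 h female vehicle mean of 1.85 FPKM. Against the vehicle of the other time, the 27 h log2 quotients were -2.92 in males and -3.52 in females and the 3 h quotients -0.37 and -0.05.

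The list of thyroid hormone handling genes was counted beside Serpina7. In the authors' deposited table TCPOBOP raised 5 of 15 and lowered none at 3 h in either sex, raised 5 and lowered 1 of 15 in 27 h males and raised 6 and lowered 1 of 16 in 27 h females. PCN raised 4 and lowered 1 of 14. Of all genes at 1 FPKM or more, TCPOBOP raised 1.33% and lowered 0.505% in 3 h males, and 2.67% and 1.84% in 3 h females. At 27 h the shares were 8.71% and 7.61% in males and 6.98% and 6.01% in females, and after PCN 12.9% and 9.41%. Ugt1a1, which joins glucuronic acid to bilirubin and thyroxine, rose in males 2.16-fold at 3 h and 3.59-fold at 27 h, and in females 2.92-fold at 27 h, with a further call upward in females at 3 h, by the authors' table. Slco1a4, an organic anion transporter that accepts thyroid hormones, was raised in all 5 comparisons, 1.796-fold in 3 h males and 9.09-fold after PCN, by the authors' table. Thrsp, a lipogenic gene named for its response to thyroid hormone, was likewise raised in all 5, among them 6.18-fold in 27 h males, 4.81-fold in 3 h females and 4.05-fold after PCN, in the authors' table. Several of these genes, such as Ugt1a1 and Slco1a4, are also known targets of the drug receptors. Dio1, which removes iodine from thyroxine, rose in 3 h males and at both times in females, 2.56-fold in 3 h females, in the authors' table.

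Other plasma carriers had 3 raised and 1 lowered of 18 in 27 h males, none raised and 3 lowered in 27 h females, and 8 raised and 2 lowered after PCN, in the authors' deposited table. Igfbp1, a binding protein of insulin-like growth factors, fell 2.99-fold in 27 h males and 3.02-fold in 27 h females and rose 3.81-fold after PCN by the authors' table. The 8 raised after PCN were Igfbp1, Igfbp2, Igfbp3, Tcn2, Orm1, Orm3, Hpx and Hp. Of these carriers, 1 rose and 1 fell in females 3 h after TCPOBOP, and none was called in males at that time after TCPOBOP. Among other serpins of the table, Agt (angiotensinogen) fell 1.54-fold and Serping1 (the C1 inhibitor) 1.74-fold in 27 h males, and 2.05-fold and 1.85-fold in 27 h females, in the authors' table. Serpind1, heparin cofactor II, rose 1.61-fold and 1.96-fold in those comparisons. The counts for these serpins were 2 raised and 3 lowered of 9 in 27 h males, 1 and 4 of 8 in 27 h females, none of 8 at 3 h after TCPOBOP in either sex, and 1 lowered of 8 after PCN. Of all genes at 1 FPKM or more, 8.71% rose and 7.61% fell in 27 h males and 6.98% and 6.01% in 27 h females. The shares were 1.33% and 0.505% in 3 h males, 2.67% and 1.84% in 3 h females, and 12.9% and 9.41% after PCN.

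Of 12 proteases on the list of serpin targets, none was called in 3 h males, 1 rose and 2 fell in 27 h males, none rose and 3 fell in 3 h females, 1 rose and 2 fell in 27 h females, and 4 fell after PCN, by the authors' deposited table. Prtn3, a protease of neutrophil granules, fell 2.88-fold in 27 h males, 2.55-fold in 3 h females and 3.62-fold in 27 h females, to levels of 0.906 to 3.39 FPKM, in the authors' table. Klkb1, plasma prekallikrein, fell 2.08-fold after PCN in that table. Genes that fold and export secreted proteins had 10 raised and 1 lowered of 20 in 27 h males and 9 raised and 1 lowered of 20 in 27 h females, with medians of 0.32 and 0.33, and no call at 3 h after TCPOBOP. After PCN 1 of the 20 rose and 4 fell. Calr, the chaperone calreticulin, rose 2.05-fold in 27 h females and the disulfide isomerase gene Pdia4 rose 1.74-fold in 27 h males, in the authors' table. Liver transcription factors had 1 raised of 19 in 3 h males (Nr1i2), and 2 raised and 4 lowered of 19 in 27 h males. In females 1 rose and 2 fell of 20 at 3 h, and 1 and 3 of 20 at 27 h. After PCN 3 of 19 rose and 5 fell. Over all genes at 1 FPKM or more, 8.71% rose and 7.61% fell in 27 h males. In 27 h females the shares were 6.98% and 6.01%, and after PCN 12.9% and 9.41%. At 3 h after TCPOBOP they were 1.33% and 0.505% in males and 2.67% and 1.84% in females. Cebpb, a factor of the acute-phase response, rose 2.59-fold after PCN, and Nr1i3, the gene of CAR, fell 1.60-fold in 27 h males and 1.91-fold in 27 h females in the authors' table.

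**Figure D4:**
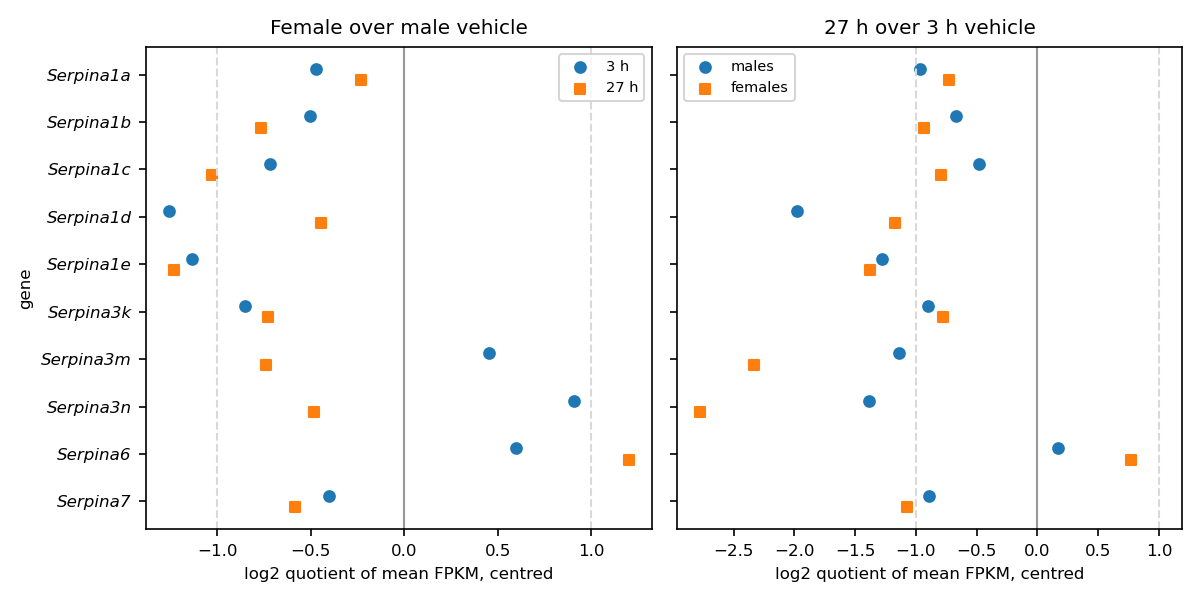
Log2 quotients of vehicle mean FPKM (0.1 FPKM added, less the median over genes at 1 FPKM or more) for the 10 genes: female over male at 3 h and 27 h (left) and 27 h over 3 h in males and females (right). Dashed lines mark 2-fold. Serpina6 is above 0 in all 4 quotients, and Serpina3n is at 0.91 at 3 h and -0.48 at 27 h for female over male.

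The vehicle groups of the TCPOBOP set show how the genes stood without the compound, as log2 quotients of group means with 0.1 FPKM added, less the median over genes at 1 FPKM or more. For female over male at 3 h, Serpina1d (-1.25) and Serpina1e (-1.14) were at least 2-fold lower and none of the 10 was 2-fold higher, against 1.78% and 1.54% of all genes. At 27 h Serpina1e (-1.23) and Serpina1c (-1.03) were 2-fold lower and Serpina6 (1.20) 2-fold higher, against 5.16% and 2.85%. The count of lower genes at 27 h was 1 without the centring and 1 with 1 FPKM added. All 5 Serpina1 copies, Serpina3k and Serpina7 were lower in females at both times, and Serpina6 was higher at both. Serpina3n and Serpina3m were higher in females at 3 h (0.91 and 0.45) and lower at 27 h (-0.48 and -0.74).

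Between the times, 9 of the 10 genes were lower in 27 h vehicle than in 3 h vehicle in both sexes, and Serpina6 was higher in both (0.17 in males, 0.77 in females). In males Serpina1d (-1.98), Serpina3n (-1.39), Serpina1e (-1.28) and Serpina3m (-1.14) were at least 2-fold lower and none was 2-fold higher, against 1.58% and 1.17% of all genes. In females Serpina3n (-2.78), Serpina3m (-2.33), Serpina1e (-1.38), Serpina1d (-1.17) and Serpina7 (-1.07) were 2-fold lower and none 2-fold higher, against 7.55% and 6.33%. Without the centring the count in females was 3. Each quotient rests on 1 mean of 2 pools per group, with no test.

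The genes also varied together in part. Over the 8 group means of the TCPOBOP set, on the log2(FPKM + 0.1) scale, Pearson's r was 0.97 between Serpina3m and Serpina3n and 0.96 between Serpina1a and Serpina1d. It was -0.84 between Serpina6 and Serpina7 and -0.82 between Serpina3k and Serpina6. These values are over 8 points that share sexes, times and a sequencing set, and whether reads shared between copies bear on them was not tested.

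Among 8892 genes at 1 FPKM or more in all 8 groups, 3 most alike are named for each member. For Serpina3m they were Steap4, Hpx and Itih4 (r of 0.99 each), and for Serpina3n they were Btg2 and Lbp (0.99 each) and Hp (0.98). Serpina1a was most like Mup9, a major urinary protein gene (0.99), with BC005561 and Rexo2 next. Serpina1b was most like Clns1a, 2410127L17Rik and Cct6a, Serpina1c like Timm10, Eif5a and Eif3f, and Serpina1d like BC005561, Skiv2l2 and Snora17. Serpina1e was most like Slc33a1, Manf and Spcs2, and Serpina3k like Eif3i, Mitd1 and Gpd2. Serpina6 was most like F10, Gsap and Cbr1, and Serpina7 like Tmem38b, Rnase4 and Bhmt. The coefficients of all these genes lay between 0.96 and 0.99, as the highest of 8892 values over 8 points.

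Markers of liver cell types were counted beside these results. The 8 hepatocyte markers summed to 2512 to 4346 FPKM in the vehicle groups and 2020.0 to 4103 FPKM in the treated groups. In 27 h males 1 of them rose (Tdo2) and 1 fell (Fgb) by the authors' deposited table, none was called in the other TCPOBOP comparisons, and 5 of 8 rose after PCN, with Tat at 3.00-fold. Of all genes at 1 FPKM or more, 12.9% rose and 9.41% fell after PCN, and 8.71% and 7.61% in 27 h males. The shares were 1.33% and 0.505% in 3 h males, 2.67% and 1.84% in 3 h females, and 6.98% and 6.01% in 27 h females. The 8 Kupffer cell markers summed to 34.0 to 99.6 FPKM in vehicle and 27.4 to 74.7 FPKM in treated groups. Emr1 rose in 27 h males and 3 h females and Cd5l fell after PCN by the authors' table. The 6 endothelial markers summed to 53.7 to 87.2 FPKM and 56.3 to 91.3 FPKM, and Pecam1, Kdr and Cdh5 rose in 27 h males, beside the rises of the Serpina1 copies there. Lyve1 rose in 3 h females and Clec4g after PCN. Of the 6 stellate markers Hgf rose in 27 h males, and the 4 neutrophil markers summed to at most 8.41 FPKM, with S100a9 raised after PCN. Cholangiocyte and pancreatic acinar markers summed to at most 8.84 and 3.21 FPKM with no call, and 1 of the 4 acinar markers was listed at 0 in both groups of each comparison. The part of these shifts in the results was not tested.

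In the PCN comparison the authors' ratio exceeded the quotient of the mean FPKM by 1.13-fold in the median gene, and the median log2 quotient was -0.14 where the median log2 ratio was 0.03. In the TCPOBOP comparisons the medians of the difference lay between -0.01 and 0.06. No called gene of the 10 changed direction when the FPKM quotient took the place of the authors' ratio.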

How the data were processed

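The 22 libraries of nuclear poly(A) RNA fall into 10 groups. The authors used TopHat2 and mm9 for mapping, edgeR, and as counters featureCounts 1.4.6-p5 and HTSeq 0.6.1p1, per the submitters' processing notes. By the deposited legend, the authors used edgeR for the TCPOBOP comparisons, HTSeq for the PCN comparison and counting over gene bodies. The authors deposited, per comparison, mean FPKM values of vehicle pools and treated pools, their ratio and signed fold change, and an adjusted p-value whose method of adjustment is not given. Depth was estimated from 3335 genes below 1500 bp with 1 location, in which 89.9% to 95.3% of low values lay within 0.1% of whole fragments. Starts in the deposited table count from 0 and were raised by 1.

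The 10 genes and all lists were chosen with earlier results of these data known. Named genes were the 10, at most 3 called genes per list and comparison with the smallest adjusted p at 1 FPKM or more, the 3 most similar genes per member, and cell type markers. Serpina3c, Serpina3f and Serpina3g, other list genes that are named without values and Serpina4-ps1 fall outside that rule and were named after their values were seen. A count model was planned for values per library. Since none were held, the authors' adjusted p at 0.05 was used. Vehicle quotients had 0.1 FPKM added and were centred. With no spread between pools, a log2 value was taken as moved where another setting shifted it by more than 1.5-fold. Python 3.11.15, pandas 2.3.3, numpy 2.4.6, matplotlib 3.10.9 and MAFFT 7.526 were used, and the steps were tested on simulated data. The authors' p-values compare treated pools with vehicle pools of several livers each, so they do not measure the spread between single animals.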

Additional observations from a re-analysis of the deposited data

How the results depend on the processing

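Counts of called members kept within 1.5 times of the value given under 1.5-fold and 1 FPKM minima, and at an adjusted p below 0.01 except for members lowered in 3 h males after TCPOBOP, which came to 1 because Serpina3n was lost. Of the 46 alternative values of counts of members, 42 stayed within 1.5 times. The others were members 2-fold lower in female than male vehicle at 27 h (1 without centring and 1 with 1 FPKM added) and in 27 h than 3 h female vehicle (3 without centring). Against the vehicle of the other time, all but 4 of the 40 log2 ratios shifted by more than 1.5-fold, and among those that shifted 4 called directions turned, to 0.14 for Serpina3n in 3 h males, -0.22 for Serpina1d and -0.22 for Serpina1e in 27 h males and -0.094 for Serpina1c in 27 h females. The cause was not tested. With 1 FPKM added, the Serpina7 log2 quotient was -1.25 in 27 h males and -1.21 in 27 h females, which follows from its level below 1 FPKM. The 3 most similar genes of Serpina7 were all different under Spearman's rho, and those of Serpina1a, Serpina1c and Serpina1d shared 1. No paired analysis was possible because the deposited table gives a single mean per group, and leaving out each pool in turn was not run for the same reason. Depth limits Serpina7 most, since 1 fragment in 1 kb is worth up to 0.0394 FPKM.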

Other observations

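The 2 sets each hold a male 3 h vehicle group, of the same strain, age and vehicle but of separate pools and library types, and their means were set side by side. Serpina3k was at 656 FPKM in the TCPOBOP set and 216 FPKM in the PCN set, Serpina1e at 13.4 and 2.97 FPKM, and Serpina3m at 83.0 and 32.8 FPKM. Serpina1a was at 139.6 and 185 FPKM, Serpina1b at 178 and 176 FPKM. FPKM summed over all genes came to 122200.0 in the TCPOBOP set and 75457 in the PCN set for these groups. After centring on the median gene, the PCN set was 2.73-fold lower in Serpina1e and 1.88-fold lower in Serpina3k, 1.56-fold lower in Serpina3m, 2.14-fold higher in Serpina1a, 1.60-fold higher in Serpina1b, 1.51-fold higher in Serpina1c, and within 1.20-fold in Serpina1d, Serpina3n, Serpina6 and Serpina7. By the deposited legend HTSeq was used for the PCN comparison. The part of the set, the library type, the counting or the animals in these differences was not tested.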
